A study of Mus musculus with 110 samples.

Results

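The genes described are 10 members of the perineuronal matrix and proteoglycan group of the mouse brain, taken by symbol from the deposited count table, in which they are 10 of 24056 gene rows used. They are the lectican core proteins aggrecan (Acan), brevican (Bcan) and versican (Vcan), the link proteins Hapln1, Hapln2 and Hapln4, the tenascins Tnr and Tnc, and the membrane proteoglycans Cspg4 and Cspg5. All 10 passed the filter on low counts in each of the 33 comparisons made, so no member was lost to it. Levels are given as CPM, a count relative to the total of its library, with library sizes adjusted by trimmed mean of M values, and are compared between samples only, never between genes, because transcript lengths were not used.

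Lecticans carry chondroitin sulfate chains and bind the sugar polymer hyaluronan at one end and tenascins at the other. Link proteins lock the lectican to hyaluronan, and tenascin-R ties lecticans together. The dense form of this mesh, the perineuronal net, is best known around parvalbumin interneurons, while brevican and neurocan are largely made by astrocytes and Cspg4, also called NG2, marks oligodendrocyte precursors and pericytes.

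The study set out to separate what astrocytes and neurons contribute in Huntington's disease by lowering mutant huntingtin with zinc-finger protein (ZFP) repressors delivered by cell-type specific adeno-associated virus. RNA was sequenced after RiboTag immunoprecipitation (IP), in which an HA-tagged ribosomal protein pulls down ribosome-bound RNA of the tagged cells, and in Input RNA. Mice of the strain R6/2, which carry a human huntingtin fragment with an expanded CAG repeat, were compared with mice labelled NCAR. The group NCAR with the control virus Delta is called ND in the labels, NCAR with ZFP is NZ, R6/2 with Delta is RD and R6/2 with ZFP is RZ, so every group received a virus. The strain field reads R6/2 for every sample, NCAR included. The sets MG (IP alone) and n_ZFP_a_Rpl are labelled astrocytes and the sets hSyn and n_ZFP_n_Rpl neurons. The labels used here give neither the brain region, the age, the promoters, nor which cells carried the ZFP in each set, and the mutant huntingtin transcript was not analysed here. Each group held 4 libraries, except 5 in hSyn ND, 3 in hSyn RD and 3 in n_ZFP_a_Rpl RD, in IP and Input alike. The labels do not say whether replicates came from separate animals, so p-values measure only the spread between these libraries. Depth ran from 26.4 to 72.6 M counts over 110 libraries, and the lowest count of any member in any library was 81.

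The labelled cell types were checked against textbook markers. In the n_ZFP_a_Rpl set 12 of 12 astrocyte markers were higher in IP than in Input, where 42.1% of all genes were. All 10 pan-neuronal markers were higher in IP in both neuron sets, where 39.2% (hSyn) and 42.6% (n_ZFP_n_Rpl) of all genes were. The astrocyte-labelled pulldowns were not free of neuronal RNA, since 9 of 10 pan-neuronal markers were also higher in IP than in Input in n_ZFP_a_Rpl. Nor were the neuron pulldowns free of astrocyte RNA. In hSyn ND astrocyte markers summed to 5482 to 7385 CPM in IP, overlapping 5568 to 7146 CPM in Input. In n_ZFP_n_Rpl ND they summed to 3336 to 4135 CPM in IP and 6734 to 7703 CPM in Input. In MG ND pulldowns they summed to 21769 to 27615 CPM. In bulk RNA, fewer cells of a type and less RNA per cell cannot be told apart.

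Hapln1, Vcan and Acan, the 3 members whose ZFP change depended on genotype in the n_ZFP_n_Rpl pulldown, are shown by their promoters. The windows hold 250 bases before to 50 bases after the start given by RefSeq (GRCm38.p6), read 5′ to 3′ on the gene's strand. Of the 10 members, 8 had such a window. The window of Hapln1 is chr13:89540386-89540685 on the plus strand, that of Vcan is chr13:89742463-89742762 on the minus strand and that of Acan is chr7:79052976-79053275 on the plus strand. Capitals mark matches, on either strand, to any of the 5 motifs searched. They were the TATA box TATAAA, the GC box GGGCGG, the core TGACG of the cyclic AMP response element, the AP-1 site TGANTCA and the EGR site GCGNGGGCG.
Hapln1: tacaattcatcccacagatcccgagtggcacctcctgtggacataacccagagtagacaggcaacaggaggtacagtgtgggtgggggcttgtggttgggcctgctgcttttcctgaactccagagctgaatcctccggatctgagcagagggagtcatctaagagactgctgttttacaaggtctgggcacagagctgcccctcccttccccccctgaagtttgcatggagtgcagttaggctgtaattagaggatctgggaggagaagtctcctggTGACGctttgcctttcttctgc
Vcan: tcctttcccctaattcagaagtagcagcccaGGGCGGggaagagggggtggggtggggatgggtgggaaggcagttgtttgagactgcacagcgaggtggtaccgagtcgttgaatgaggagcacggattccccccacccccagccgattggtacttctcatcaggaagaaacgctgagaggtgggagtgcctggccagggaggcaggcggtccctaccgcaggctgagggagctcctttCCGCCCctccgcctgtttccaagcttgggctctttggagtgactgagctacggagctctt
Acan: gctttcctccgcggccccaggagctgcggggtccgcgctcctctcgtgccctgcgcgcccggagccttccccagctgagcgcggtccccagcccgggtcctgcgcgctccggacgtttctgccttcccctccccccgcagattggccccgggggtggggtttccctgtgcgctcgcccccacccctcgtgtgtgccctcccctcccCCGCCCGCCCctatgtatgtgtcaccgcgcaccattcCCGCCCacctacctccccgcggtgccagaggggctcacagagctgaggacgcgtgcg
The capitals in Hapln1 are a TGACG at base +29 from the start, a sequence that 20.8% of the 32851 RefSeq windows hold. The capitals in Vcan are GGGCGG at -219 and, on the opposite strand, at -10. Acan held 3 such GC boxes on the opposite strand, at -44, -40 and -7, and the pair at -44 and -40 overlap. The GC box was found in 35.7% of all windows, and the TATA box, the AP-1 site and the EGR site, which were in 13.6%, 7.81% and 5.55% of windows, were in none of these 3. Hapln1 and Vcan lie side by side on chromosome 13, 43.5 kb apart with no protein-coding gene between them, and 3 further lectican and link protein pairs are neighbours in the same way. Bcan and Hapln2 are 18.4 kb apart on chromosome 3, and Hapln4 lies 2.2 kb from neurocan (Ncan) on chromosome 8. Acan lies 1.9 kb from Hapln3 on chromosome 7.

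Where the members were read was first asked by setting IP against Input. In the astrocyte set n_ZFP_a_Rpl, 5 members were higher in IP and 4 lower, in a comparison that called 84.9% of all genes, 42.1% higher and 42.8% lower. Bcan was 3.16-fold higher in the astrocyte pulldown (log2 difference 1.66 ± 0.03 SE), and Tnc (1.43 ± 0.08), Hapln1 (1.35 ± 0.05), Cspg5 (1.06 ± 0.03) and Hapln4 (0.62 ± 0.11) were higher too. Cspg4 (-1.67), Hapln2 (-1.43) and Vcan (-1.32) were lower, as was Tnr by 0.06, a call that 9 single-library omissions ended, with adjusted p up to 0.177 without RD Input replicate 3, as did the use of no filter on low counts (adjusted p = 0.109). Acan did not pass the test in any of the 3 sets, although it did without RZ Input replicate 3 in hSyn (adjusted p = 0.0201) and without NZ IP replicate 3 in n_ZFP_a_Rpl (adjusted p = 0.0389).

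In the neuron sets most members were lower in the pulldown. In hSyn, where 78.7% of genes were called (39.2% higher, 39.5% lower), 2 members were higher and 7 lower in IP, and in n_ZFP_n_Rpl, where 83.3% were called (42.6% higher, 40.7% lower), 1 was higher and 7 lower. Hapln4, a link protein of perineuronal nets, was higher in the pulldown by 0.72 ± 0.16 in hSyn and 0.55 ± 0.15 in n_ZFP_n_Rpl. Tnr was higher in hSyn (0.47 ± 0.06), and in n_ZFP_n_Rpl its difference of 0.07 had an edgeR adjusted p of 0.193, against 0.00069 with IP and Input of the same number paired and 0.0463 without IP ND replicate 3. Cspg4 was the member with the largest difference from Input, 4.26-fold lower in hSyn and 5.87-fold lower in n_ZFP_n_Rpl, followed by Hapln2, the link protein of nodes of Ranvier (-1.71 and -1.97), and Vcan (-1.18 and -1.72). Bcan (-0.57 and -1.11) and Tnc (-0.51 and -0.68) were lower than in Input, and Cspg5 and Hapln1 by 0.14 to 0.27.

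**Figure D1:**
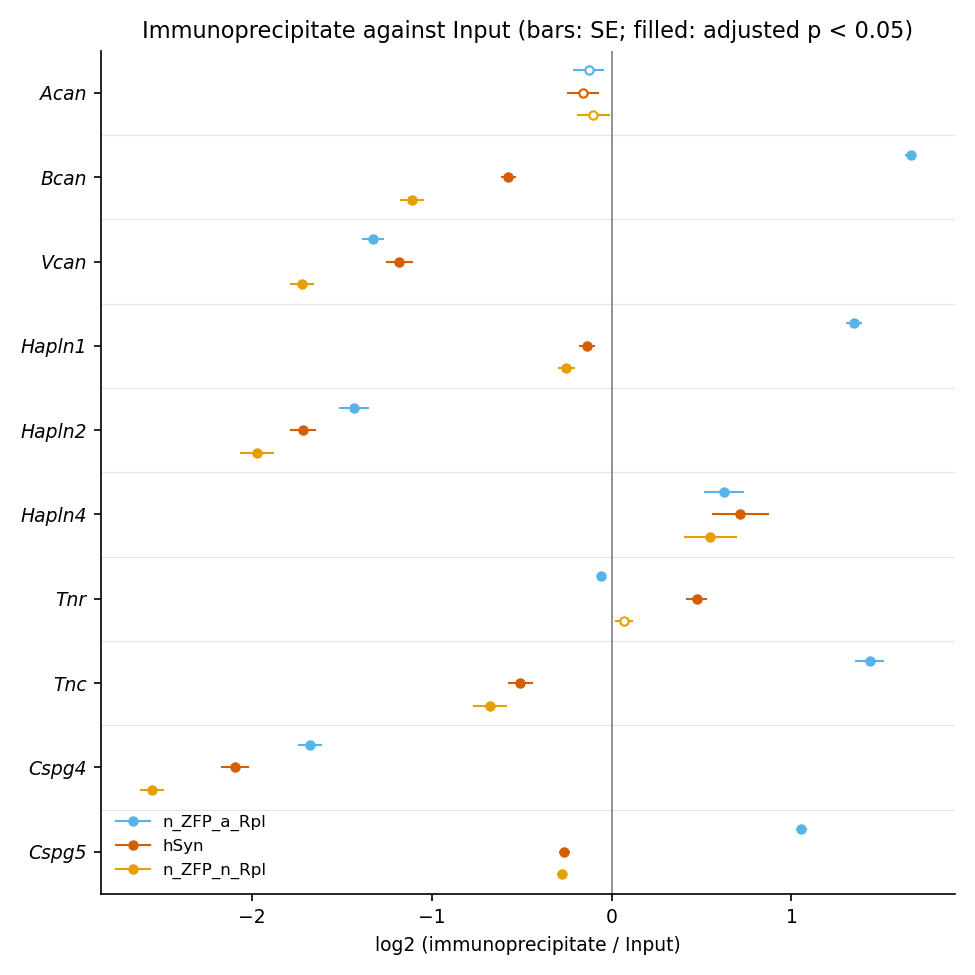
Log2 difference of immunoprecipitate over Input for the 10 members in the 3 sets with an Input, over all 4 conditions. Points are edgeR estimates and bars are SE; filled points passed an adjusted p of 0.05. Bcan, Tnc, Hapln1 and Cspg5 lie to the right of 0 in the astrocyte set and to the left in both neuron sets, and Cspg4, Hapln2 and Vcan lie to the left in all 3.

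Neuron and astrocyte pulldowns were then set directly against each other in ND mice, 9 neuron against 8 astrocyte libraries, a comparison in which 69.5% of genes were called, 38.0% higher in neurons and 31.5% lower. Bcan was 6.30-fold lower in the neuron pulldowns (-2.65 ± 0.09), Tnc 4.28-fold (-2.10 ± 0.14), Hapln1 3.41-fold (-1.77 ± 0.10), Cspg5 2.77-fold (-1.47 ± 0.06) and Cspg4 2.26-fold (-1.18 ± 0.13). Hapln4 (0.74 ± 0.19) and Acan (0.42 ± 0.14) were higher in neurons, and Vcan did not differ detectably (0.12 ± 0.11, edgeR quasi-likelihood adjusted p = 0.313). Hapln2 (-0.44) and Tnr (0.16) also passed the test, but 12 and 5 single-library omissions ended those calls, with adjusted p up to 0.144 (Hapln2, without MG replicate 4) and 0.136 (Tnr, without n_ZFP_n_Rpl replicate 1). The Tnr call was also lost with no filter on low counts (adjusted p = 0.182). Each set holds one labelled cell type, so the set and the cell type cannot be told apart.

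The next comparison asked how the members differed in R6/2 mice, RD against ND. Over 7 fits and 10 members, 32 of 70 values were lower in R6/2, 3 were higher and the rest did not pass the test. In the IPs, 4 of 10 members were lower in MG, 3 in n_ZFP_a_Rpl, 6 in hSyn and 4 in n_ZFP_n_Rpl, in comparisons that called 16.2%, 24.7%, 25.5% and 26.2% of all genes lower. In Inputs 6 were lower in hSyn, 5 in n_ZFP_a_Rpl and 4 in n_ZFP_n_Rpl, against 21.6%, 24.7% and 23.7% of all genes. The 3 members called higher were Tnr in hSyn IP, Hapln2 in n_ZFP_n_Rpl IP and Hapln4 in n_ZFP_a_Rpl Input, where 25.4%, 25.2% and 24.4% of all genes were higher. In either direction the comparisons called 33.5% of genes in MG, 45.3% in n_ZFP_a_Rpl IP, 51.0% in hSyn IP, 51.4% in n_ZFP_n_Rpl IP, and 49.1%, 44.1% and 49.8% in the Inputs of n_ZFP_a_Rpl, hSyn and n_ZFP_n_Rpl. The members' median log2 difference was -0.24 in MG, -0.15 in n_ZFP_a_Rpl, -0.34 in hSyn and -0.43 in n_ZFP_n_Rpl IPs, while the median of all genes lay between -0.002 and 0.035.

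Hapln1 was lower in R6/2 in all 7 fits, and most so in the neuron pulldowns. In hSyn IP its level was 25.8, 25.8, 27.9, 27.9 and 26.7 CPM in the 5 ND libraries and 12.9, 9.95 and 13.1 CPM in the 3 RD libraries. In n_ZFP_n_Rpl IP it was 17.4, 19.2, 17.8 and 17.4 CPM in ND and 7.82, 6.69, 7.65 and 7.30 CPM in RD. The groups did not overlap in either set, and the fall was 2.32-fold in hSyn (-1.22 ± 0.09, edgeR adjusted p = 1.89e-08) and 2.51-fold in n_ZFP_n_Rpl (-1.33 ± 0.07, adjusted p = 5.01e-09). In the astrocyte set n_ZFP_a_Rpl the IP level went from 53.9, 63.6, 52.5 and 49.2 CPM in ND to 44.0, 39.5 and 38.8 CPM in RD, again with no overlap and a smaller change (-0.46 ± 0.11, edgeR adjusted p = 0.00394). In MG the fall was -0.60 ± 0.21 (edgeR adjusted p = 0.0385), and leaving out ND replicate 2, 3 or 4 or RD replicate 1, 2 or 4 ended the call, with adjusted p up to 0.10. The Inputs fell by 1.01 ± 0.10 in hSyn, 1.05 ± 0.11 in n_ZFP_n_Rpl and 0.53 ± 0.06 in n_ZFP_a_Rpl on the log2 scale.

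Vcan fell in the neuron pulldowns to a similar extent. Its level in hSyn IP was 44.1, 41.1, 38.4, 33.3 and 25.2 CPM in ND and 14.3, 10.9 and 16.2 CPM in RD. In n_ZFP_n_Rpl IP it was 18.8, 24.5, 34.7 and 22.9 CPM in ND and 9.42, 11.6, 12.1 and 9.11 CPM in RD. The ND libraries were spread, yet every RD library lay below all of them, and the fall was 2.74-fold in hSyn (-1.45 ± 0.17, edgeR adjusted p = 3.83e-06) and 2.47-fold in n_ZFP_n_Rpl (-1.31 ± 0.15, adjusted p = 5.27e-06). The astrocyte set n_ZFP_a_Rpl showed no such difference, with 19.6, 29.4, 21.5 and 24.1 CPM in ND IP and 25.3, 25.3 and 24.6 CPM in RD (0.05 ± 0.13). In MG IP Vcan went from 30.6, 31.9, 33.2 and 33.9 CPM to 21.1, 29.7, 25.9 and 17.9 CPM (-0.44 ± 0.16, edgeR adjusted p = 0.0440). The MG call was lost without any single ND library and without RD replicate 1, 3 or 4, with adjusted p up to 0.121.

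Acan, the core protein of perineuronal nets, was lower in 3 of the 4 pulldowns. In hSyn IP it was at 4.59, 3.37, 5.45, 4.16 and 5.17 CPM in ND and 2.26, 1.95 and 2.01 CPM in RD (-1.18 ± 0.17, edgeR adjusted p = 2.74e-05). In n_ZFP_n_Rpl IP it was at 6.84, 5.28, 5.44 and 4.45 CPM in ND and 3.96, 3.04, 2.49 and 3.14 CPM in RD (-0.84 ± 0.17, adjusted p = 0.000752). No library of one group reached the range of the other in either set. Acan was also lower in n_ZFP_a_Rpl IP (-0.70 ± 0.19, edgeR adjusted p = 0.00849) and in that set's Input (-0.48 ± 0.16, adjusted p = 0.0166, but 0.0871 without RD replicate 2).

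**Figure D2:**
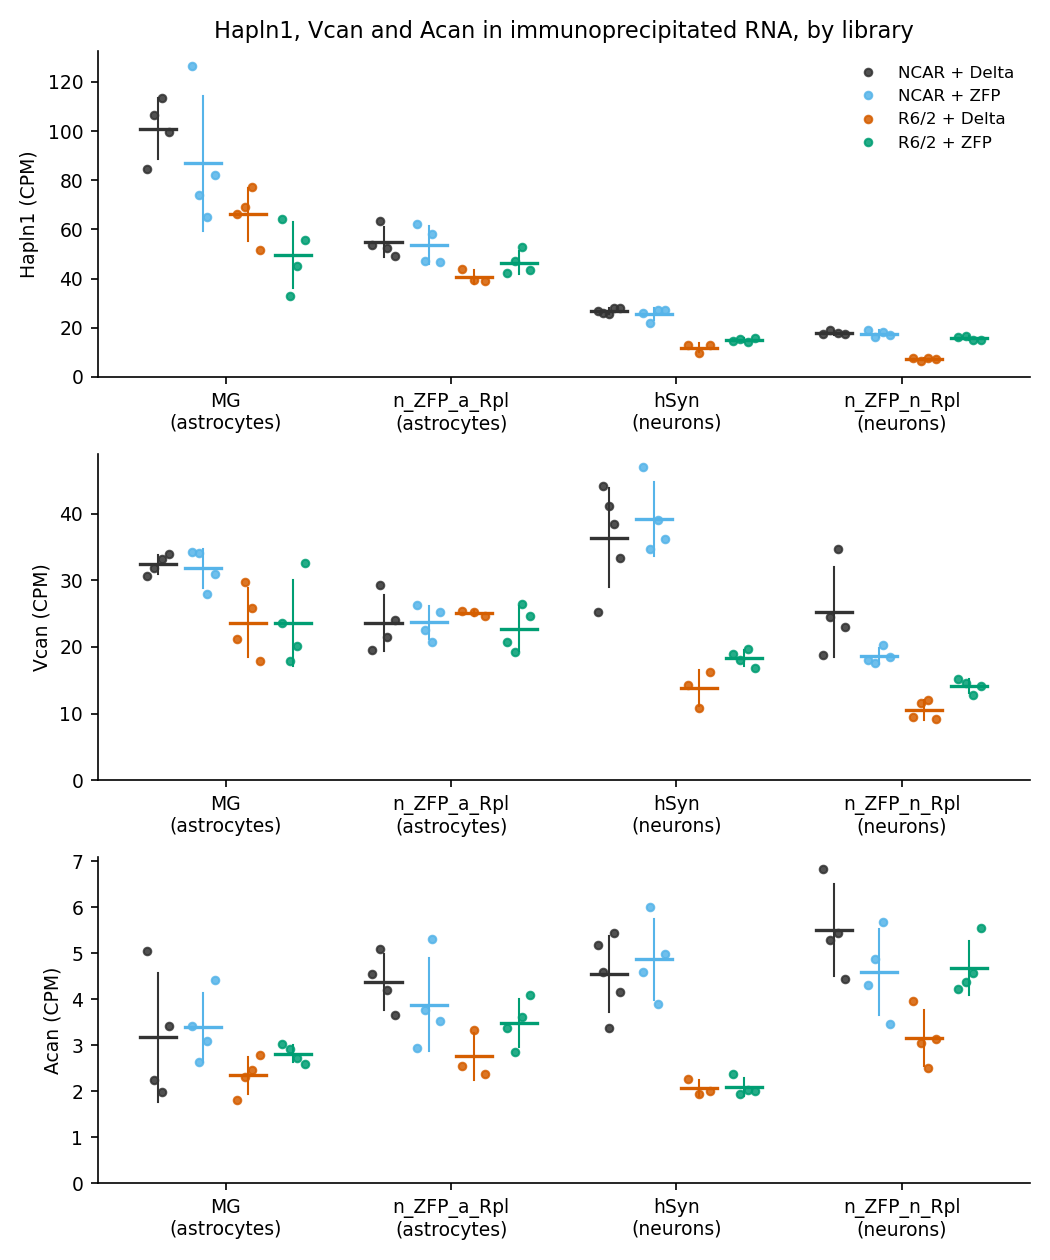
CPM of Hapln1, Vcan and Acan in the 4 sets of immunoprecipitated RNA. Each point is a library, horizontal bars are group means and vertical bars are SD. Hapln1 in n_ZFP_n_Rpl lies at 6.69 to 7.82 CPM in R6/2 with Delta and at 14.9 to 16.8 CPM in R6/2 with ZFP, whereas in hSyn the 2 R6/2 groups lie at 9.95 to 13.1 and 14.2 to 15.7 CPM.

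Whether the R6/2 difference of a member was larger in neurons than in astrocytes was tested as the neuron IP change minus the astrocyte IP change, a contrast that called 20.7% of all genes, 9.15% as lower in neurons. Vcan (-1.18 ± 0.17, edgeR adjusted p = 5.86e-07) and Hapln1 (-0.73 ± 0.15, adjusted p = 0.000196) passed, and both calls held without any single library. Tnc (-0.51 ± 0.21, adjusted p = 0.0795), Acan (-0.44 ± 0.21, adjusted p = 0.122) and Cspg4 (0.47 ± 0.19, adjusted p = 0.0689) did not. Acan passed without MG ND replicate 1 (adjusted p = 0.0211). Tnc passed without MG ND replicate 4, hSyn RD replicate 1, n_ZFP_a_Rpl ND replicate 3 or n_ZFP_n_Rpl RD replicate 3, with adjusted p down to 0.0335. Cspg4 passed without MG ND replicate 3 or 4, MG RD replicate 1, n_ZFP_n_Rpl ND replicate 4 or n_ZFP_n_Rpl RD replicate 2, with adjusted p down to 0.0375.

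Markers of other cells moved with the falls in the neuron pulldowns. In hSyn IP the summed level of 12 astrocyte markers was 5482 to 7385 CPM in ND and 2925 to 3577 CPM in RD, and 11 of the 12 fell. In n_ZFP_n_Rpl IP the sum was 3336 to 4135 CPM in ND and 1688 to 2375 CPM in RD, and 8 of 12 fell. All 12 genes of the interneuron list fell in both neuron sets, a list that includes Gad1 and so is not limited to interneurons. Its sums were 1488 to 1727 against 1034 to 1196 CPM in hSyn and 1721 to 1929 against 1119 to 1210 CPM in n_ZFP_n_Rpl. Of 10 mural cell markers 5 fell in hSyn and 4 in n_ZFP_n_Rpl, and of 12 striatal projection neuron markers 11 fell in each. The summed oligodendrocyte precursor markers, a list that includes the broader Sox10, Olig1 and Olig2, overlapped or lay higher in RD (109 to 140 against 118 to 153 CPM in hSyn, and 98.6 to 113 against 124 to 188 CPM in n_ZFP_n_Rpl). In hSyn IP 4 of 8 endothelial markers fell (11.0 to 16.4 against 6.88 to 8.41 CPM in sum) and 6 of 8 microglia markers (32.4 to 44.0 against 27.0 to 32.0 CPM). In n_ZFP_n_Rpl IP 0 endothelial and 4 microglia markers fell, with overlapping sums. Of 10 pan-neuronal markers 7 fell and 2 rose in each set, with sums of 8246 to 9060 against 7912 to 8145 CPM in hSyn and 8710 to 11478 against 7074 to 8557 CPM in n_ZFP_n_Rpl. No marker of these lists was at 0 in any of these groups. Their part in the falls of Hapln1, Vcan and Acan was not tested.

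Subtracting the Input change from the IP change asked whether the pulldown differed beyond the tissue. In n_ZFP_n_Rpl this contrast called 3.68% of all genes, 2.48% as lower, and Vcan was lower by 0.66 ± 0.18 (edgeR adjusted p = 0.0385). Of the 16 ND and RD libraries, all but IP ND replicate 1 and Input ND replicate 3 ended that call when left out, with adjusted p up to 0.217, and without IP ND replicate 3 the value was -0.33. The call was also lost with other scaling factors (adjusted p = 0.0770) and with no filter on low counts (adjusted p = 0.0546). IP and Input libraries of the same number deviated together in all 16 pairs, so the paired fit is given beside it. With the replicate block Vcan was at -0.64 ± 0.11 (adjusted p = 0.00058), and Hapln1 (-0.34 ± 0.10, adjusted p = 0.0170), Hapln2 (0.88 ± 0.23, adjusted p = 0.0135) and Hapln4 (-0.41 ± 0.10, adjusted p = 0.00625) passed as well, in a fit that called 3877 genes against 595 without the block. Without pairing those 3 had edgeR adjusted p of 0.172, 0.0520 and 0.675, and Hapln2 passed in 10 single-library omissions, with adjusted p down to 0.0104 without IP ND replicate 4. In hSyn 1.01% of genes were called, 0.869% as higher (142 genes higher and 23 lower, but 35 and 35 with no filter on low counts). Hapln2 was higher there by 0.96 ± 0.21 (edgeR adjusted p = 0.0182) and Vcan did not pass (-0.75 ± 0.21, adjusted p = 0.0937). Vcan passed without IP ND replicate 0 (adjusted p = 0.0225), with DESeq2 (adjusted p = 0.0209) and with the replicate block (adjusted p = 0.00547). In this set only 11 of 14 pairs of the same number deviated together, so the numbers may not pair every library. The Hapln2 call was lost without IP RD replicate 1 or 3, Input ND replicate 4 or 5 or Input RD replicate 1, with adjusted p up to 0.141. No member passed in n_ZFP_a_Rpl, where 1.86% of genes were called, with or without the block.

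Bcan, a lectican that astrocytes make, was lower in 6 of the 7 fits. In n_ZFP_a_Rpl IP it was at 631, 640, 624 and 559 CPM in ND and 447, 468 and 494 CPM in RD, with no overlap (-0.42 ± 0.07, edgeR adjusted p = 0.000116). In MG IP it was at 447, 498, 523 and 481 CPM in ND and 416, 403, 414 and 304 CPM in RD (-0.33 ± 0.12, adjusted p = 0.0455). The MG ranges did not overlap, yet the call was lost without ND replicate 2, 3 or 4 or RD replicate 2 or 4, with adjusted p up to 0.134. Bcan was lower in hSyn IP (-0.41 ± 0.11, edgeR adjusted p = 0.00484) and in all 3 Inputs (-0.32 to -0.47), and in n_ZFP_n_Rpl IP its difference of -0.23 ± 0.16 did not pass. The astrocyte marker sum was lower in RD in the astrocyte pulldowns too, 13043 to 18767 against 21769 to 27615 CPM in MG and 14975 to 16348 against 18894 to 23640 CPM in n_ZFP_a_Rpl, although 1 and 5 of its 12 genes passed the test. Its part in the fall of Bcan was not tested.

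Cspg4, the NG2 proteoglycan, had its largest difference in MG. Its level there was 18.2, 18.9, 12.7 and 12.01 CPM in ND and 8.97, 7.44, 6.29 and 5.34 CPM in RD, a 2.19-fold fall with no overlap (-1.13 ± 0.19, edgeR adjusted p = 0.000278). The sum of 10 oligodendrocyte precursor markers in the same libraries was 219 to 275 CPM in ND and 198 to 316 CPM in RD, where 3 of the 10 fell and 1 rose. That list includes Sox10, Olig1 and Olig2, which are not limited to precursors, so its sum does not measure precursor RNA alone. Mural cell markers summed to 109 to 141 CPM in ND and 90.3 to 119 CPM in RD, which overlap. The part of either list in the fall of Cspg4 was not tested. In the other pulldowns Cspg4 was at -0.46, -0.27 and -0.40 in n_ZFP_a_Rpl, hSyn and n_ZFP_n_Rpl and did not pass. It passed in n_ZFP_a_Rpl without RD replicate 2 (adjusted p = 0.0194) and in n_ZFP_n_Rpl without ND replicate 3 (0.0270) or RD replicate 1 (0.0146). With DESeq2 it passed in both (adjusted p = 0.0377 and 0.0421). The n_ZFP_a_Rpl value also passed with the replicate block (adjusted p = 0.0318). Among Inputs it was lower in n_ZFP_a_Rpl (-0.20 ± 0.06, edgeR adjusted p = 0.00573). Cspg5, a membrane proteoglycan also called neuroglycan C, was lower in the 3 Inputs by 0.17 to 0.33 and in hSyn IP by 0.20 ± 0.06 (adjusted p = 0.0134, but 0.0736 without RD replicate 1). The Input call in n_ZFP_a_Rpl was lost without RD replicate 3 (adjusted p = 0.0716), and n_ZFP_n_Rpl IP passed without ND replicate 3 (adjusted p = 0.0376). Cspg4 in n_ZFP_n_Rpl Input (-0.19 ± 0.08, adjusted p = 0.0559) passed without ND replicate 1 or 3 or RD replicate 4. It also passed with DESeq2 (adjusted p = 0.0326) and with other scaling factors (adjusted p = 0.0377).

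Of the tenascins, Tnc fell in both neuron pulldowns, while no value of Tnr was called lower. Tnc in n_ZFP_n_Rpl IP was at 7.79, 9.16, 7.30 and 6.96 CPM in ND and 5.67, 3.91, 6.88 and 5.12 CPM in RD (-0.57 ± 0.17, edgeR adjusted p = 0.0114). In hSyn IP it was at 5.41, 4.97, 6.77, 6.35 and 5.09 CPM in ND and 5.21, 3.09 and 4.55 CPM in RD, where the groups overlapped (-0.47 ± 0.16, adjusted p = 0.0243). That call was lost without ND replicate 3 or 4 or RD replicate 2, with adjusted p up to 0.169. Tnc was also lower in hSyn Input (-0.49 ± 0.12, edgeR adjusted p = 0.00271), and n_ZFP_n_Rpl Input (-0.50 ± 0.20, adjusted p = 0.0503) passed without ND replicate 3 or RD replicate 1 or 3. Tnr was higher in hSyn IP, at 139, 129 and 107 CPM in RD against 88.8 to 110 CPM in ND (0.30 ± 0.08, adjusted p = 0.00745, but 0.0648 without RD replicate 1), and in the other 6 fits it lay between -0.01 and 0.12.

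Of the remaining link proteins, Hapln2 was called in 2 fits and Hapln4 in 1. Hapln2 was higher in n_ZFP_n_Rpl IP, at 6.82, 5.82, 4.92 and 9.64 CPM in RD against 3.87, 4.24, 3.70 and 5.69 CPM in ND, with overlap (0.60 ± 0.19, edgeR adjusted p = 0.0164, but 0.0797 without RD replicate 4). It was lower in hSyn Input (-0.74 ± 0.11, adjusted p = 5.62e-05). In the other Inputs Hapln2 did not pass, but did without ND or RD replicate 2 in n_ZFP_a_Rpl and without ND replicate 2 or RD replicate 4 in n_ZFP_n_Rpl. The summed mature oligodendrocyte markers were lower too in hSyn Input, at 4335 to 5344 CPM in RD against 6333 to 7918 CPM in ND. In n_ZFP_n_Rpl IP they summed to 1714 to 2941 CPM in RD and 1471 to 2063 CPM in ND, which overlap. The part of these markers was not tested. Hapln4 was higher in n_ZFP_a_Rpl Input (0.40 ± 0.15, edgeR adjusted p = 0.0376), a call lost without ND replicate 2 or 4 or RD replicate 2 or 3, with adjusted p up to 0.160.

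**Figure D3:**
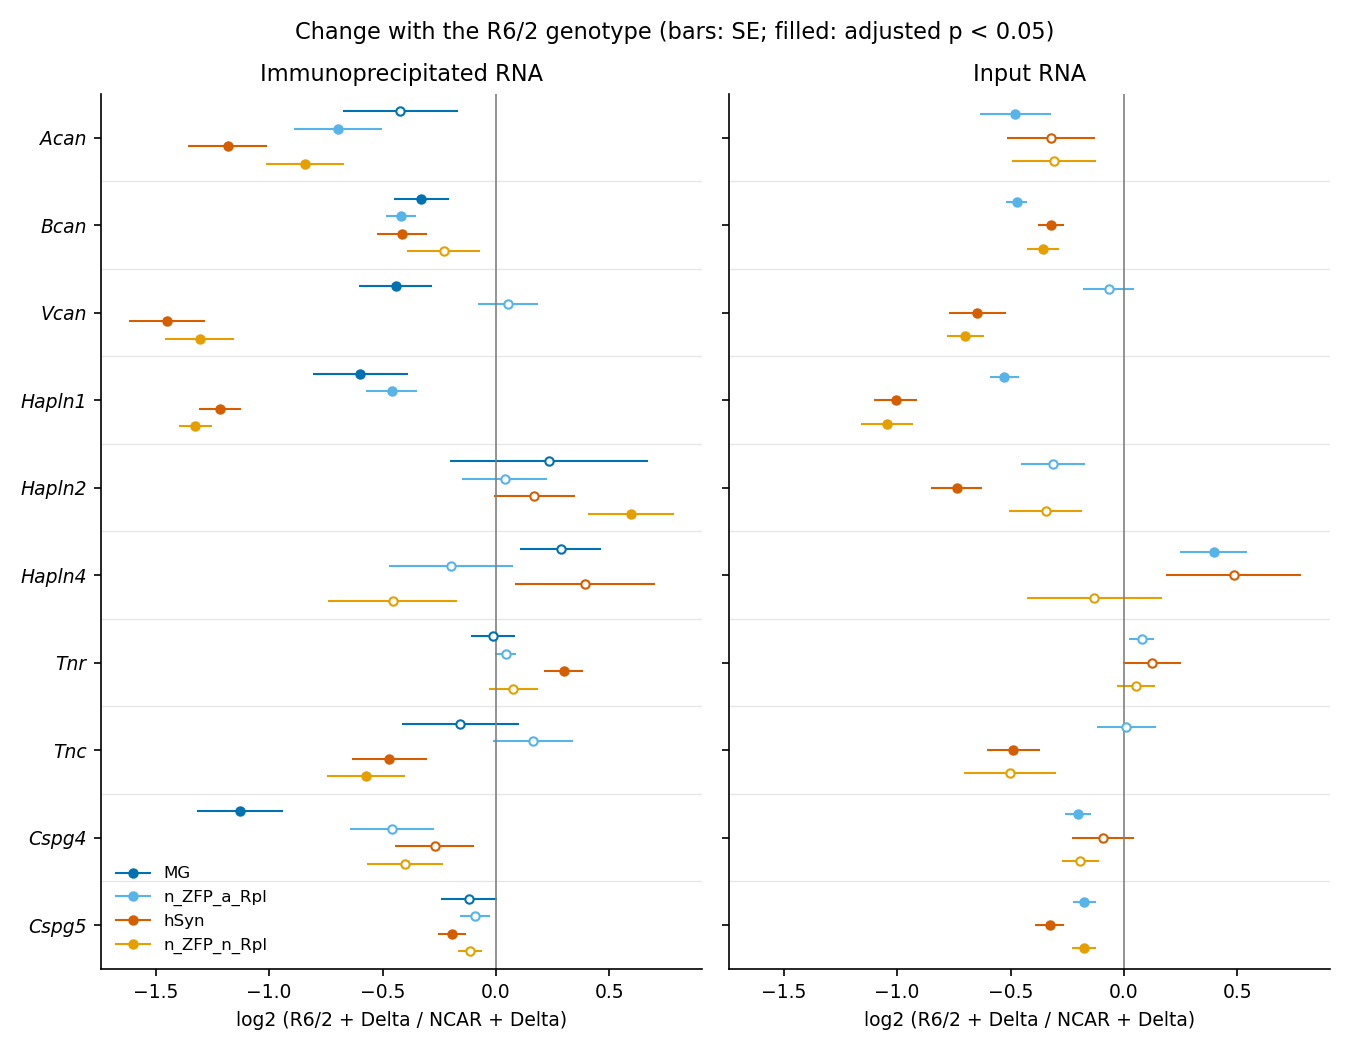
Log2 difference of R6/2 over NCAR mice, both with Delta, for the 10 members in immunoprecipitated RNA (left) and Input RNA (right). Points are edgeR estimates, bars are SE, and filled points passed an adjusted p of 0.05. Hapln1 is below 0 and filled in all 7 fits, and Vcan, Hapln1 and Acan in the hSyn pulldown lie at -1.45, -1.22 and -1.18.

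The ZFP comparison in R6/2 mice, RZ against RD, called 5 of 70 member values, 4 higher and 1 lower. It uses the same RD libraries as the R6/2 comparison, so the values are set side by side and their agreement is not counted. In n_ZFP_n_Rpl IP 2 of 10 members were higher, where 9.47% of all genes were higher and 17.4% called in either direction. In n_ZFP_a_Rpl IP 1 was lower, where 14.7% of genes were lower and 33.8% called. No member was called in MG or hSyn IP, in which 0.0782% and 0.0391% of all genes were called in either direction. Among Inputs, Hapln1 alone was called, in the 2 n_ZFP sets, where 16.1% (n_ZFP_a_Rpl) and 3.32% (n_ZFP_n_Rpl) of genes were, 11.1% and 2.49% as higher. In hSyn Input 0% of genes were called.

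Hapln1 had the largest of these values. In n_ZFP_n_Rpl IP the RZ libraries were at 16.2, 16.8, 15.2 and 14.9 CPM, against 7.82, 6.69, 7.65 and 7.30 CPM in RD, a 2.16-fold rise (1.11 ± 0.07, edgeR adjusted p = 8.78e-08). The NZ libraries were at 19.2, 16.1, 18.3 and 17.1 CPM, so the RZ libraries lay just under the ND range of 17.4 to 19.2 CPM and overlapped NZ. In Inputs Hapln1 rose by 0.50 ± 0.11 in n_ZFP_n_Rpl (adjusted p = 0.0213) and by 0.32 ± 0.06 in n_ZFP_a_Rpl (adjusted p = 0.00146). The n_ZFP_n_Rpl Input went from 10.7, 10.7, 10.1 and 9.43 CPM to 13.8, 17.5, 14.7 and 11.8 CPM, and its call was lost without RD replicate 2, 3 or 4 or RZ replicate 2 or 3, with adjusted p up to 0.0944. In hSyn IP the RZ libraries, at 14.8, 15.5, 14.2 and 15.7 CPM, lay above the RD range, but the difference of 0.32 ± 0.09 did not pass (adjusted p = 0.571). In MG IP Hapln1 was at 64.4, 33.0, 45.3 and 55.6 CPM in RZ and did not pass either (-0.45 ± 0.21, adjusted p = 0.275).

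Acan rose in n_ZFP_n_Rpl IP to 4.22, 4.38, 4.58 and 5.55 CPM (0.58 ± 0.17, edgeR adjusted p = 0.0285), above every RD library. The call was lost without RD replicate 2, 3 or 4 or RZ replicate 3 or 4, with adjusted p up to 0.0838. In hSyn IP Acan was at 2.38, 1.94, 2.04 and 2.00 CPM in RZ, overlapping RD (0.01 ± 0.18). Vcan in n_ZFP_n_Rpl IP was at 15.2, 14.6, 12.7 and 14.2 CPM in RZ, above the RD libraries, without passing (0.44 ± 0.15, edgeR adjusted p = 0.0586). Hapln2 did not pass there (-0.46, adjusted p = 0.109), but did without RD replicate 3 (adjusted p = 0.0470).

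The ZFP change in R6/2 was tested against the ZFP change in NCAR by the interaction of genotype and virus. In n_ZFP_n_Rpl IP this contrast called 13.1% of all genes, 8.47% higher, and 3 of the 10 members passed, each with a value above 0, the ZFP change in R6/2 minus that in NCAR. They were Hapln1 (1.15 ± 0.10, edgeR adjusted p = 2.77e-05), Vcan (0.90 ± 0.22, adjusted p = 0.0129) and Acan (0.86 ± 0.24, adjusted p = 0.0281). Vcan was not called for the ZFP in either genotype alone, and its values were of about equal size and opposite sign, 0.44 in R6/2 and -0.46 in NCAR, its NCAR libraries going from 18.8 to 34.7 CPM with Delta to 17.6 to 20.3 CPM with ZFP (-0.46 ± 0.15, adjusted p = 0.0776, or 0.0204 without ND replicate 1). Hapln1 and Vcan kept the call without any single library, with Vcan at adjusted p up to 0.0315, while Acan lost it without NZ replicate 1, RD replicate 2 or 3 or RZ replicate 4, with adjusted p up to 0.0539. No member passed in n_ZFP_a_Rpl, where 16.5% of genes were called, although Acan (0.54 ± 0.26) did without NZ replicate 3 (adjusted p = 0.0443). None passed in MG or hSyn, where 0% of genes were called. In n_ZFP_n_Rpl IP of R6/2 mice, where 9.47% of all genes were higher with the ZFP, 9 of 12 striatal projection neuron markers also rose. Their sum went from 3047 to 4077 up to 4859 to 7892 CPM. Of the interneuron list, which includes Gad1, 8 of 12 rose, from 1119 to 1210 up to 1408 to 1606 CPM in sum. Of the 12 astrocyte markers 2 rose, with sums of 1688 to 2375 and 2234 to 3306 CPM. In NCAR mice of the same pulldown, 2.86% of all genes were higher and 4.5% lower with the ZFP. The projection neuron markers there summed to 9479 to 14237 CPM with Delta and 7138 to 9869 CPM with ZFP, which overlap. With edgeR 0 of the 12 passed the test (list median -0.46). Interneuron markers summed to 1721 to 1929 and 1546 to 1893 CPM, where 0 of 12 passed, and astrocyte markers to 3336 to 4135 and 3871 to 5111 CPM, where 1 of 12 rose. The part of these markers in the interactions of Hapln1, Vcan and Acan was not tested.

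**Figure D4:**
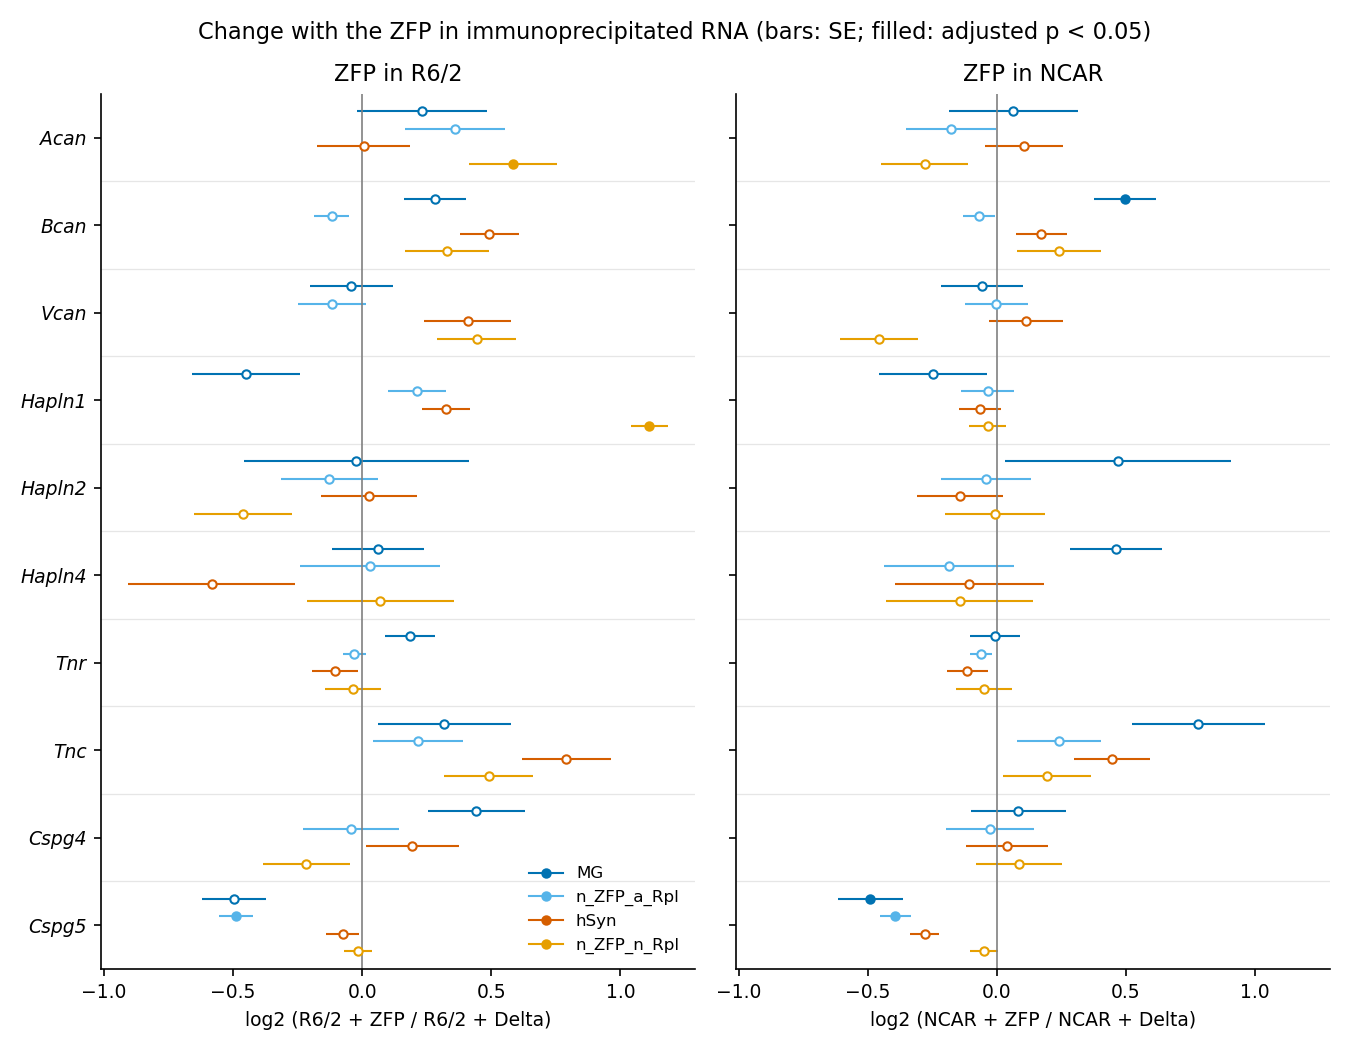
Log2 difference with ZFP against Delta in R6/2 (left) and NCAR (right) mice for the 10 members in immunoprecipitated RNA. Points are edgeR estimates, bars are SE, and filled points passed an adjusted p of 0.05. In R6/2, Hapln1 at 1.11 and Acan at 0.58 in n_ZFP_n_Rpl are filled, and Cspg5 at -0.49 in n_ZFP_a_Rpl is the filled point to the left of 0.

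Cspg5 was the member that fell with the ZFP, and it did so in both genotypes. In n_ZFP_a_Rpl IP of R6/2 mice it was at 456, 424 and 461 CPM with Delta and 314, 294, 313 and 333 CPM with ZFP (-0.49 ± 0.07, edgeR adjusted p = 3.93e-05). In NCAR mice of the same set it was at 451, 513, 471 and 430 CPM with Delta and 391, 357, 356 and 322 CPM with ZFP (-0.39 ± 0.06, adjusted p = 0.00226). The virus groups did not overlap in either genotype, and the interaction did not pass (-0.10 ± 0.09, adjusted p = 0.529). The NCAR comparison of this set called 2.07% of all genes, or 0.872% as lower. Over all sets it called 3 of 70 member values, with none in n_ZFP_n_Rpl IP (7.36% of genes called), hSyn IP (0.0261%) or the Inputs (0.00622% in hSyn, 0.957% in n_ZFP_a_Rpl, 3.03% in n_ZFP_n_Rpl).

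In MG, Cspg5 was at 516, 558, 588 and 619 CPM in ND and 510, 417, 337 and 396 CPM in NZ, with no overlap (-0.49 ± 0.12, edgeR adjusted p = 0.0353), where 7.05% of genes were called, 3.36% as lower and 3.68% as higher. In R6/2 mice of that set, at 520, 514, 560 and 485 CPM with Delta and 416, 305, 330 and 460 CPM with ZFP, the groups were apart but the value did not pass (-0.50 ± 0.12, adjusted p = 0.143). Without RZ replicate 1 it did (adjusted p = 0.0156), in a fit that then called 2043 genes against 12 with all libraries. With DESeq2 it passed with all libraries (adjusted p = 0.0196). The NCAR call was lost without any single ND library or NZ replicate 3, 4 or 5, with adjusted p up to 0.102. All 7 fits in each genotype gave Cspg5 a value below 0 with the ZFP. Of the uncalled ones, hSyn IP in NCAR mice passed without NZ replicate 1 (adjusted p = 0.0377) and n_ZFP_a_Rpl Input in R6/2 mice without RD replicate 3 (adjusted p = 0.0327). With DESeq2, hSyn IP (adjusted p = 0.00819) and hSyn Input (adjusted p = 0.035) in NCAR mice passed as well. In n_ZFP_a_Rpl IP of R6/2 mice, where 14.7% of all genes were lower with the ZFP, 11 of 12 astrocyte markers also fell. Their sum went from 14975 to 16348 down to 12194 to 13041 CPM. In NCAR mice of that pulldown, where only 0.872% of all genes were lower, 0 of these 12 markers fell. Their part in the fall of Cspg5 was not tested.

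Bcan rose with the ZFP in MG of NCAR mice, from 447, 498, 523 and 481 CPM to 820, 705, 562 and 718 CPM (0.50 ± 0.12, edgeR adjusted p = 0.0307). The groups did not overlap, and the call was lost without any single ND library or NZ replicate 3 or 5, with adjusted p up to 0.0892. In R6/2 mice of that set Bcan was at 447, 418, 454 and 595 CPM with ZFP and did not pass (0.28 ± 0.12). With edgeR Bcan was not called with the ZFP in any other fit. With DESeq2 it was higher in hSyn IP of R6/2 mice (0.49, adjusted p = 0.0207). The ranges there were apart, 96.4 to 114 CPM with ZFP and 71.0 to 82.7 CPM with Delta. In the MG libraries of NCAR mice pan-neuronal markers summed to 7191 to 7967 CPM with Delta and 6386 to 6766 CPM with ZFP, where 2 of 10 fell. Projection neuron markers summed to 9066 to 9714 and 5193 to 8707 CPM, where 5 of 12 fell, and astrocyte markers to 21769 to 27615 and 18431 to 37195 CPM, where 0 of 12 were called. Their part in the rise of Bcan and the fall of Cspg5 was not tested. Tnc had values above 0 with the ZFP in all 7 fits of each genotype, none of which passed with edgeR. With DESeq2 4 of them did, MG in NCAR mice (adjusted p = 0.0194) and, in R6/2 mice, hSyn IP (0.00987), n_ZFP_a_Rpl Input (0.0371) and n_ZFP_n_Rpl IP (0.0336). The highest was 0.79 ± 0.17 in hSyn IP of R6/2 mice, from 5.21, 3.09 and 4.55 CPM to 6.85, 8.81, 6.23 and 7.87 CPM (edgeR adjusted p = 0.277). In n_ZFP_n_Rpl IP of R6/2 mice the value was 0.49 (adjusted p = 0.0615), and it passed without RD replicate 3 (adjusted p = 0.0266).

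**Figure D5:**
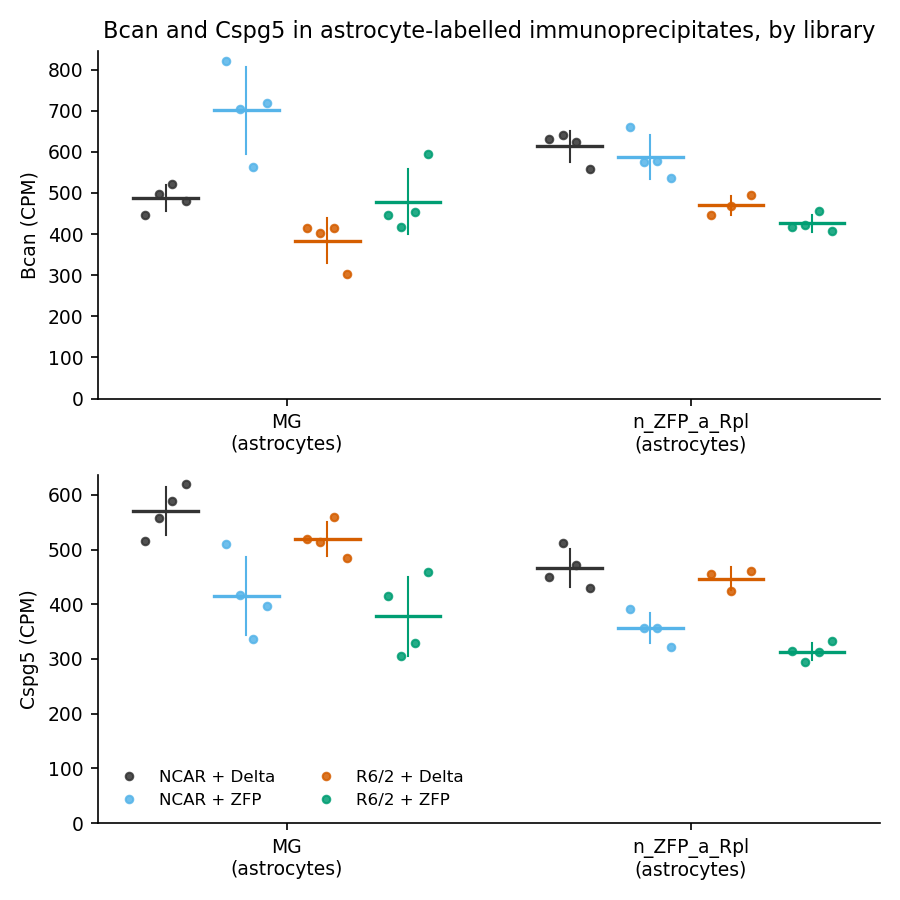
CPM of Bcan and Cspg5 in the 2 astrocyte-labelled sets of immunoprecipitated RNA. Each point is a library, horizontal bars are group means and vertical bars are SD. Cspg5 in n_ZFP_a_Rpl lies at 294 to 333 CPM in R6/2 mice with ZFP and at 424 to 461 CPM with Delta.

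Neurocan, the lectican not in the group, lies next to Hapln4 and was measured alongside. It was lower in R6/2 in all 7 fits (-0.43 to -0.63). With the ZFP in MG it fell from 652, 757, 807 and 769 to 363, 423, 353 and 345 CPM in NCAR mice (-1.04 ± 0.12, edgeR adjusted p = 0.00101) and from 549, 569, 620 and 463 to 331, 215, 257 and 299 CPM in R6/2 mice (-1.03 ± 0.12, adjusted p = 0.00209). It also fell in hSyn IP of R6/2 mice (-0.43, edgeR adjusted p = 0.0496). In n_ZFP_n_Rpl IP of R6/2 mice it rose instead (0.26 ± 0.07, adjusted p = 0.0147). In n_ZFP_a_Rpl of NCAR mice it fell in IP (-0.46, adjusted p = 0.000584) and Input (-0.21, adjusted p = 0.00226). In that set's Input of R6/2 mice it rose (0.14, adjusted p = 0.0158). Its interaction was above 0 in n_ZFP_a_Rpl IP (0.29, adjusted p = 0.0419) and n_ZFP_n_Rpl IP (0.40, adjusted p = 0.0132). Over the 28 group means, log levels of neighbouring lectican and link protein genes had Pearson r of 0.01 (Vcan and Hapln1), -0.03 (Bcan and Hapln2), 0.07 (Ncan and Hapln4) and -0.22 (Acan and Hapln3). Those groups share sets and fractions, as they do for Bcan with Tnc (r = 0.96) and with Cspg5 (r = 0.90).

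The genes most like each member over the 28 group means were taken by Pearson r of log CPM. For Bcan the closest was the fibroblast growth factor receptor Fgfr3 (r = 0.996), for Cspg4 the precursor receptor Pdgfra (r = 0.982), and for Hapln2 myelin basic protein, Mbp (r = 0.975). For Vcan it was the ectonucleotidase Entpd1 (r = 0.943), with the haematopoietic genes Dock8 (r = 0.937) and Lair1 (r = 0.934) next, and for Hapln1 it was Car5b (r = 0.970). Acan had the lowest top value, with Gpr26 (r = 0.890). The remaining top matches were Tshz3 for Hapln4, Rnf24 for Tnr, Plxnb2 for Tnc and Gstm5 for Cspg5, with r between 0.968 and 0.972. These are descriptions over groups that share sets and fractions.

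The wider pathway was read from 5 gene lists in the pulldowns. Genes named here and below are those with the largest change, up to 2 per direction and list in each set. A set not given for a named gene may therefore also have changed. For comparison, in R6/2 16.2% of all genes were lower and 17.4% higher in MG, 24.7% and 20.6% in n_ZFP_a_Rpl, 25.5% and 25.4% in hSyn, and 26.2% and 25.2% in n_ZFP_n_Rpl. Of the matrix assembly list, which holds hyaluronan synthases, pentraxins and neurocan, 8 of 15 tested genes were lower in R6/2 and none higher in MG, and 9 of 15 were lower and 1 higher in hSyn. In n_ZFP_a_Rpl 9 of 14 were lower and 2 higher, and in n_ZFP_n_Rpl 7 of 14 were lower and 1 higher, with list medians from -0.35 to -0.65 in the 4 sets, against all-gene medians from -0.002 to 0.035. The neuronal pentraxin Nptx2, which gathers AMPA receptors at synapses on interneurons, was lower by 1.68 to 2.56 on the log2 scale in all 4 (-2.22 in MG, -1.68 in n_ZFP_a_Rpl, -2.32 in hSyn, -2.56 in n_ZFP_n_Rpl). The hyaluronan synthase Has3 fell in MG (-1.39), hSyn (-2.03) and n_ZFP_n_Rpl (-1.35), while Has1 rose in hSyn (0.62), n_ZFP_n_Rpl (0.74) and n_ZFP_a_Rpl (0.54).

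Of 14 genes in the receptor list, 5, 8, 7 and 10 fell in MG, n_ZFP_a_Rpl, hSyn and n_ZFP_n_Rpl. In the same order 0, 1, 1 and 0 rose, beside the shares of all genes given above. The list holds receptors for chondroitin sulfate and hyaluronan, but also Egfr, integrins and adhesion molecules such as Nfasc and Nrcam. Integrin Itga9, a tenascin-C receptor, fell in all 4 (-1.77 to -2.18), and the hyaluronan receptor Cd44 fell in both neuron sets (-2.97 in hSyn, -1.92 in n_ZFP_n_Rpl). Enzymes of chondroitin sulfate synthesis, 22 tested, split between 4 to 6 lower and 5 to 8 higher, beside those same shares. The sulfotransferase Chst15 fell in all 4 sets (-0.55 to -0.86) and the dermatan epimerase Dse rose in all 4 (0.72 to 0.97). Of 24 matrix turnover genes 6 to 10 fell and 3 to 6 rose, where 16.2% to 26.2% of all genes fell and 17.4% to 25.4% rose. The lectican-cleaving protease Adamts4 rose in n_ZFP_a_Rpl (0.79), hSyn (0.90) and n_ZFP_n_Rpl (0.79), and Adamts15 fell in MG (-1.18), n_ZFP_a_Rpl (-0.89) and n_ZFP_n_Rpl (-0.93). Of the other proteoglycans 7 to 9 of 20 or 21 fell and at most 1 rose, beside those same shares. Among them Spock3 fell in MG (-0.86), n_ZFP_a_Rpl (-0.67) and n_ZFP_n_Rpl (-0.85).

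With the ZFP in R6/2 mice, the n_ZFP_n_Rpl pulldown had 4 of 14 matrix assembly genes higher and none lower, 5 of 24 turnover genes higher, 3 of 14 receptors higher and 3 of 20 other proteoglycans higher and 1 lower, where 9.47% of all genes were higher and 7.95% lower. Among them were Has3 (1.16 ± 0.15), Nptx2 (0.84 ± 0.20), Cd44 (1.30 ± 0.22) and the membrane protease Mmp15 (1.16 ± 0.12). Chondroitin sulfate synthesis differed, with 1 of 22 higher (Chst15, 0.31) and 5 lower, including Dse (-0.44). In n_ZFP_a_Rpl IP, where 19.1% of all genes were higher and 14.7% lower, 5 of 14 matrix assembly genes were higher and 2 lower. Receptors had 5 higher and 1 lower of 14, synthesis 5 and 2 of 22, turnover 6 and 3 of 24 and other proteoglycans 5 and 3 of 20, with medians of the 5 lists from -0.13 to 0.10. The assembly genes included Nptx2 (1.18 ± 0.19) and Has3 (1.14 ± 0.19) rising and Sparcl1 (-0.32) and Ptprz1 (-0.33), both astrocyte-enriched, falling. In MG and hSyn neurocan was the single gene of the 5 lists called, and it was lower in both (edgeR adjusted p = 0.00209 and 0.0496). The hSyn fit called 6 genes in all, and 0 without RD replicate 1, so that call was lost there.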

How the data were processed

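Raw read counts per gene for 110 libraries (IP of 4 sets, Input of 3) were used as the authors deposited them. Per the submitters' processing notes the authors worked with mm10, STAR and HTSeq; versions and strand settings were not stated there. Libraries were grouped by the sample labels, and 4 rows that repeat a symbol were left out. No libraries were copies of each other. Counts were tested with edgeR 4.0.16 in R 4.3.3 (robust quasi-likelihood test, TMM factors, filterByExpr with a minimum count of 10 and a minimum total of 15). Each set and fraction was fitted over its 4 conditions, and IP with Input, or the 4 IPs, in joint fits. P-values were adjusted by Benjamini-Hochberg over all genes tested and called at 0.05; the SE is the log2 difference over the root of the F statistic. The same script was tested on simulated data. Printed levels are CPM with TMM factors over all libraries. IP and Input libraries of one condition and number deviated together in n_ZFP_a_Rpl (15 of 15 pairs, r from 0.45 to 0.67) and n_ZFP_n_Rpl (16 of 16, r from 0.53 to 0.73), so the numbers pair them. In hSyn 11 of 14 pairs did (r from -0.24 to 0.75), so the numbers there may not pair every library. Alternatives were RLE factors, no filter on low counts, DESeq2 1.42.0, the replicate number as a block, and leaving out each library. The named pathway genes were up to 2 per direction and list with the largest change among called genes of at least 1 CPM; the genes most like a member had at least 5 CPM. The members, lists and tests were chosen with earlier results of these data known.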

Additional observations from a re-analysis of the deposited data

Results flagged for a closer look

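In 8 of 240 combinations of member and group checked, 1 library lay far from the others by Dixon's criterion, which chance alone gives in about 1 in 20 groups. In hSyn Input, RZ replicate 4 was the lowest for Cspg4 (19.1 CPM) and the highest for Hapln1 (18.0 CPM), and ND replicate 4 was the highest for Hapln2 (18.0 CPM) and Tnc (11.0 CPM). Tnc was lowest in hSyn Input NZ replicate 1 (9.12 CPM) and n_ZFP_n_Rpl Input ND replicate 3 (8.45 CPM). In MG, Bcan was lowest in RD replicate 4 (304 CPM) and Hapln4 in NZ replicate 2 (30.9 CPM).

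Effects under the same contrast differed between groups for 7 member values, each by edgeR's test of the difference itself. The R6/2 change was lower in neuron than in astrocyte pulldowns for Vcan (-1.18) and Hapln1 (-0.73). It differed between IP and Input for Hapln2 in hSyn (0.96) and Vcan in n_ZFP_n_Rpl (-0.66). The ZFP change in R6/2 minus that in NCAR mice was above 0 in n_ZFP_n_Rpl IP for Hapln1 (1.15), Vcan (0.90) and Acan (0.86); Vcan had 0.44 in R6/2 and -0.46 in NCAR.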

How the results depend on the processing

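Of 85 called member values, 65 kept the call in every alternative run, and 0 of 5450 member values compared reversed a call; 235 changed sign with no call in either setting. Counts of all genes called moved by over 1.5 times as follows. With the replicate block, 3 genes were called in MG NZ against ND, 6 in MG RZ against RD, 1 in hSyn IP RZ against RD and 287 in n_ZFP_n_Rpl Input NZ against ND, and the IP minus Input contrast called 582 (hSyn), 933 (n_ZFP_a_Rpl) and 3877 (n_ZFP_n_Rpl). The numbers did not pair libraries across conditions. In MG the block ended the calls of Bcan, Vcan and Hapln1 in R6/2 (adjusted p = 0.0900, 0.0941 and 0.0725) and of Bcan and Cspg5 with the ZFP in NCAR (0.221 and 0.232), and elsewhere of Cspg5 and Tnc in hSyn IP (0.0713 and 0.0569) and Hapln4 in n_ZFP_a_Rpl Input (0.0621) in R6/2. Without a filter the R6/2 calls of Bcan, Vcan and Hapln1 in MG (0.0515, 0.0522 and 0.0522) and Hapln4 in n_ZFP_a_Rpl Input (0.0539), and Hapln2 in hSyn IP minus Input (0.0601), were lost, as were 2 calls of Tnr (0.109 for IP against Input in n_ZFP_a_Rpl, 0.182 for neuron against astrocyte pulldowns). DESeq2 added 17 member calls, 4 of them Tnc with the ZFP, and ended 0.

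With DESeq2, NZ against ND called 2251 genes in MG, 10 in hSyn IP, 5 in hSyn Input, 875 in n_ZFP_a_Rpl IP, 336 in its Input, 1751 in n_ZFP_n_Rpl IP and 1101 in its Input. RZ against RD called 391 in MG, 22 in hSyn IP, 5 in hSyn Input and 901 in n_ZFP_n_Rpl Input. The interaction called 52 in MG and 7 in hSyn, and IP minus Input 266 in hSyn and 473 in n_ZFP_a_Rpl. With no filter, 1 gene was called for the MG interaction and 70 (hSyn) and 373 (n_ZFP_n_Rpl) for IP minus Input; with RLE factors hSyn gave 106. The split of IP minus Input in n_ZFP_n_Rpl, 194 higher and 401 lower, became 338 and 117 with RLE factors and 489 and 189 with DESeq2. The cause was not tested.

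Leaving out 1 library gave 19 to 2057 genes for MG NZ against ND (1081 with all), 5 to 2043 for MG RZ against RD (12), 4206 to 4553 for MG RD against ND (5143) and 0 to 3 for the MG interaction. For hSyn it gave 43 to 160 (IP minus Input), 3 to 5 and 0 to 4 (IP, NZ and RZ), 0 to 1 (interaction), and 1 to 2 and 0 to 1 (Input, NZ and RZ). For n_ZFP_a_Rpl it gave 179 to 343 (IP minus Input), 151 to 641 (IP, NZ), 77 to 151 and 1677 to 2297 (Input, NZ and RZ). For n_ZFP_n_Rpl it gave 348 to 675 (IP minus Input), 524 to 1313 (IP, NZ), 155 to 1270 and 216 to 516 (Input, NZ and RZ).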
